A study of Homo sapiens with 6 samples.

Results

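*LINGO4* and *ADRA2A*, which were among the genes with the largest decreases in SH-SY5Y cells after viral expression of *Esrrg*, were examined with their paralogues *LINGO1*, *LINGO2*, *ADRA2B* and *ADRA2C*. These 6 genes were taken by symbol from the 67060 genes of the count table. *LINGO4* and *ADRA2A* were chosen for their decrease in these same libraries, so their fold changes are given as a description with no test. The paralogues were chosen by family name and not by their own values. SH-SY5Y cells come from a human neuroblastoma, are labelled as neuronal progenitor, and were grown in medium with serum. Cells received an adenovirus encoding GFP (Ad CMV GFP) or mouse *Esrrg* with a 3xFlag tag (Ad CMV 3xFlag-*Esrrg*), each behind the CMV promoter, and total RNA was taken 24 h later. Each virus had 3 libraries, which carry the replicate numbers 1, 3 and 4 (Ad CMV GFP) or 2, 3 and 4 (Ad CMV 3xFlag-*Esrrg*), and values are listed in that order. No untreated cells were among the libraries, so every value compares a virus with a virus in 1 cell line. The labels do not say that the libraries came from separate cultures, so the spread between them may be technical.

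LINGO proteins are single-pass membrane proteins with leucine-rich repeats and an immunoglobulin domain outside the cell. LINGO1 is known as a partner of the Nogo receptor and of NGFR or TNFRSF19 in a complex that acts through RHOA and ROCK kinases and limits axon growth and myelination. Alpha-2 adrenoceptors bind noradrenaline and adrenaline and couple to inhibitory G proteins, which lower cyclic AMP and open potassium channels. On noradrenergic neurons the subtype encoded by *ADRA2A* is known as an autoreceptor that restrains transmitter release. ERRγ, the product of *ESRRG*, is an orphan nuclear receptor that binds extended AGGTCA sites.

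Libraries held from 24969759 to 40859666 reads assigned to genes. *ESRRG* counts were 2357, 2796 and 2876 with Ad CMV GFP and 15228, 25994 and 26497 with Ad CMV 3xFlag-*Esrrg*, a log2 fold change of 3.02 ± 0.14 (SE), and reads of the virus and of the cell's own gene cannot be told apart in these counts. The libraries also differed in the share of reads assigned to no feature, which was 51.3% to 52.2% with Ad CMV GFP but 46.6%, 31.6% and 29.5% in Ad CMV 3xFlag-*Esrrg* replicates 2, 3 and 4. Fits with this share as a covariate are given with the alternatives. Of 10 adrenergic neuroblastoma markers, 8 were tested, while *TH* and *CHGA* were listed at 0 in every library. Their summed level was 803 to 855 CPM (counts per 1000000 reads after TMM scaling) with Ad CMV GFP and 591 to 780 CPM with Ad CMV 3xFlag-*Esrrg*, without overlap, and *DBH* and *STMN2* fell while *PHOX2A* rose. All 6 mesenchymal or fibroblast markers were detected and 4 of them fell, with summed levels of 1498 to 1597 CPM with Ad CMV GFP and 1044 to 1104 CPM with Ad CMV 3xFlag-*Esrrg*. Schwann cell or glial markers summed to 8.88 to 9.33 CPM and 6.84 to 7.82 CPM in the same order, and 1 of 6 fell. Immune markers summed to at most 1.01 CPM in any library, with *CD3E* at 0. Markers said to fall or rise were called by edgeR, at an adjusted p below 0.05 and at least 1.5-fold. Over all 24500 tested genes, 34.1% were called and 58.1% had groups that did not overlap in CPM. The part of these markers in the results was not tested.

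*LINGO4* lies on chromosome 1 at 151800264 to 151805419 of GRCh38, on the minus strand, in 2 exon blocks. *ADRA2A* lies on chromosome 10 at 111077029 to 111080907, on the plus strand, as a single exon. The 250 bases before the RefSeq start of each gene (GRCh38.p14), which equals its GENCODE start, are shown for the promoters of both decreased genes, which differed in base composition. Each is written 5′ to 3′ on the strand of its gene, with CpG dinucleotides in capitals.
LINGO4, chr1:151805420-151805669, minus strand: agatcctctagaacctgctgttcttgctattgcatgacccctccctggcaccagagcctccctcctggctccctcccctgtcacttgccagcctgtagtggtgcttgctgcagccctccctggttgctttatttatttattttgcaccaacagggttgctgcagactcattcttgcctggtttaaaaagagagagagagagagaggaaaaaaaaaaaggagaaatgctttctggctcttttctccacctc
ADRA2A, chr10:111076779-111077028, plus strand: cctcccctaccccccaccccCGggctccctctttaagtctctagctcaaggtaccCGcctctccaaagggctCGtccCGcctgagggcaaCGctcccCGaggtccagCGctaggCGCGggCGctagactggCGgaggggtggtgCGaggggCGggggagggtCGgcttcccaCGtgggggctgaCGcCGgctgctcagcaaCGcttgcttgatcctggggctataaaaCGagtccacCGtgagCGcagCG
The *LINGO4* sequence held 49.6% G and C bases and 0 CpG, and the *ADRA2A* sequence 68.8% and 22 CpG. Over 35116 promoters of this length in the same table the medians were 58.0% and 11, so the 2 sequences lay on opposite sides of both. The *ADRA2A* sequence held TATAAA 29 bases and CACGTG 80 bases before the start, motifs that were searched after the sequence had been read and that 10.7% and 6.35% of all these promoters hold on either strand. The ERR element TNAAGGTCA and its core AGGTCA, searched on both strands, were in neither sequence. They occur in 0.854% and 12.1% of the promoters, where every element also contains the core. Within 4000 bases centred on the start, none of the 6 genes had TNAAGGTCA and each had 1 or 2 copies of AGGTCA, against 14.0% and 92.1% of 20033 protein-coding starts with at least 1. A match is a description of letters, and its absence concerns these windows alone.

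*LINGO4*, a little studied member of its family, went from clearly detected to near the limit of detection. Its counts were 90, 132 and 109 with Ad CMV GFP and 2, 3 and 6 with Ad CMV 3xFlag-*Esrrg*. All 3 control libraries were high and the groups did not overlap. In CPM the values were 3.19, 4.27 and 3.29 against 0.0748, 0.0891 and 0.176, so the means were 3.58 ± 0.594 (SD, n = 3) and 0.113 ± 0.0548 (SD, n = 3). A floor of 3 counts corresponds to 0.0880 to 0.112 CPM in these libraries, and only 1 of the 3 Ad CMV 3xFlag-*Esrrg* libraries, replicate 4, lay above it. The fitted log2 fold change was −4.90 ± 0.33 (SE). Summed over libraries and scaled by library size, 331 counts against 11 gave a level 30.8-fold lower, with an exact 95% interval for counting error of 17.0 to 62.4. In bulk RNA, fewer cells that express a gene and less RNA per cell cannot be told apart.

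*ADRA2A*, the autoreceptor gene, was also lower in every Ad CMV 3xFlag-*Esrrg* library but remained detected. Its counts were 190, 267 and 293 with Ad CMV GFP and 12, 16 and 31 with Ad CMV 3xFlag-*Esrrg*. The groups did not overlap, and every library was above the floor. Mean levels were 8.07 ± 1.16 CPM (SD, n = 3) and 0.611 ± 0.259 CPM (SD, n = 3), with replicate 4 the highest of the Ad CMV 3xFlag-*Esrrg* libraries at 0.910 CPM. The log2 fold change was −3.69 ± 0.26 (SE), and 750 summed counts against 59 gave a level 13.0-fold lower (exact 95% interval for counting error 9.98 to 17.3). These values are of the contrast that chose both genes. In that contrast 34.1% of 24500 tested genes were called (adjusted p below 0.05 and at least 1.5-fold), 16.8% as lower, and 58.1% had groups that did not overlap, 30.3% with the lower values in Ad CMV 3xFlag-*Esrrg*.

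**Figure D1:**
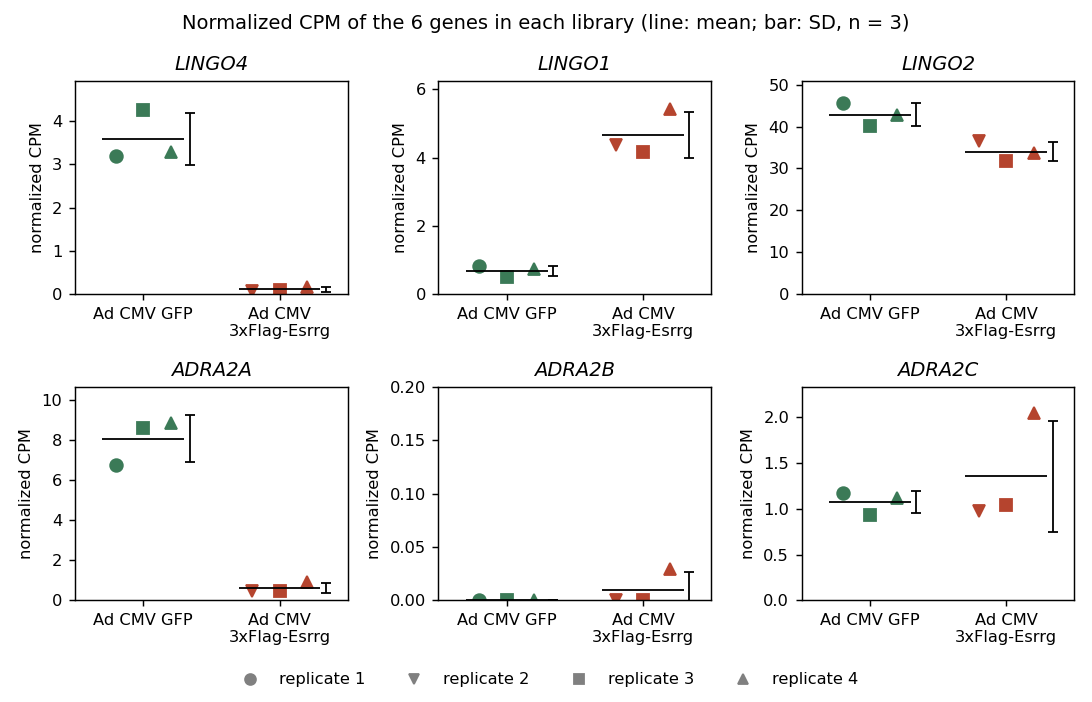
Normalized CPM (vertical axes, each with its own scale from 0) of the 6 genes in each library of the 2 groups; points are libraries, horizontal lines are means and vertical bars are SD (n = 3). *LINGO4* and *ADRA2A* were lower and *LINGO1* higher in all Ad CMV 3xFlag-*Esrrg* libraries, whereas *ADRA2C* overlapped and *ADRA2B* had 1 count in 1 library.

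In the order of log2 fold changes over the 2444 genes called lower with a mean of at least 50 counts, *LINGO4* stood first and *ADRA2A* at place 3. Between them was *NEUROG2*, a proneural transcription factor gene, at −3.73. Behind *ADRA2A* came the long non-coding RNA gene ENSG00000260918 at −3.60 and *SPTSSB*, which encodes a small subunit of serine palmitoyltransferase, at −3.49. With no limit on the mean count, an order added after seeing the data, *LINGO4* stood at place 7 and *ADRA2A* at place 26 of 24500 genes, and the 6 genes ahead of *LINGO4* had a mean of at most 18.0 counts.

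Among the paralogues, *LINGO1*, the Nogo receptor partner, moved in the direction opposite to *LINGO4*. Its counts were 23, 16 and 24 with Ad CMV GFP and 117, 140 and 185 with Ad CMV 3xFlag-*Esrrg*. Every Ad CMV 3xFlag-*Esrrg* library was above every control library, as for 27.8% of tested genes. Mean levels were 0.686 ± 0.153 CPM (SD, n = 3) and 4.66 ± 0.679 CPM (SD, n = 3). *LINGO1* rose by 2.76 ± 0.23 (SE) on the log2 scale, with an adjusted p of 2.1e-05 in edgeR's quasi-likelihood test with Benjamini-Hochberg adjustment over all tested genes, a direction in which 17.3% of them were called. The summed counts of 63 and 442 gave a level 6.85-fold higher, with an exact 95% interval of 5.25 to 9.07 for counting error. The call was kept under all 16 alternative fits, which ranged from 2.26 to 2.94.

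*LINGO2*, a neuronal member of the family, had the highest counts of the 6 genes and differed little between groups. Its counts were 1283, 1238 and 1419 with Ad CMV GFP and 975, 1073 and 1147 with Ad CMV 3xFlag-*Esrrg*. In CPM, 45.5, 40.0 and 42.9 stood against 36.5, 31.9 and 33.7, so the groups did not overlap but lay close. The log2 fold change was −0.33 ± 0.10 (SE) with an adjusted p of 0.016 by edgeR, under the 1.5-fold limit and therefore not called. Scaled by library size alone it was −0.65 and called, and after correction for GC and length it was 0.029 with an adjusted p of 0.79. In GENCODE 44, 6881 of the exon bases of *LINGO2* (44.4%) are shared on the same strand with the non-coding gene ENSG00000260412, so counts of both are uncertain. The counts of ENSG00000260412 were 831, 691 and 677 against 374, 307 and 285, and it fell by 1.20 on the log2 scale.

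*ADRA2C*, which encodes another presynaptic alpha-2 subtype, was detected at low counts in all libraries. Its counts were 33, 29 and 37 with Ad CMV GFP and 26, 35 and 70 with Ad CMV 3xFlag-*Esrrg*. In counts, replicate 4 of the latter group was the highest and replicate 2 the lowest of all 6, and the groups overlapped in counts and in CPM. Mean levels were 1.08 ± 0.122 CPM (SD, n = 3) and 1.36 ± 0.606 CPM (SD, n = 3). The log2 fold change was 0.35 ± 0.31 (SE) with an adjusted p of 0.38 by edgeR, so a difference was not detectable here, and the ratio of summed counts had an exact 95% interval of 0.987 to 1.69. This value rested on single libraries. It was −0.082 without Ad CMV 3xFlag-*Esrrg* replicate 4, and 0.64 with an adjusted p of 0.048, a call, without replicate 2.

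*ADRA2B*, the gene of the remaining subtype, had 0 counts in 5 libraries and 1 count in Ad CMV 3xFlag-*Esrrg* replicate 4. It was not tested and no fold is given, since a count of 0 allows up to 3 counts, or 0.0880 to 0.112 CPM, for counting error only. Sequence shared between genes, which could make reads ambiguous, was counted as 31-base words of the exons. Of these, 0 of 2614 in *LINGO4*, 0 of 5394 in *LINGO1* and 6912 of 15726 in *LINGO2* occur in any other gene, the last mostly in ENSG00000260412. The adrenoceptor genes shared 18 of 3849 words (*ADRA2A*), 33 of 3666 (*ADRA2B*) and 16 of 2172 (*ADRA2C*) with other genes, mostly with one another.

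**Figure D2:**
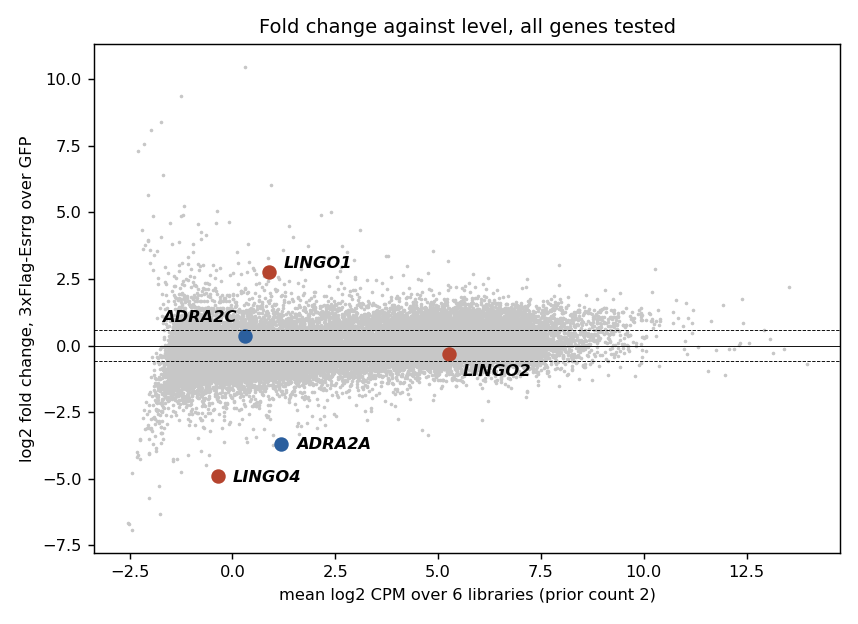
Log2 fold change of Ad CMV 3xFlag-*Esrrg* over Ad CMV GFP (vertical axis) against mean log2 CPM over the 6 libraries (horizontal axis) for the 24500 genes tested (grey), with 5 of the 6 genes named; dashed lines mark a 1.5-fold change. *LINGO4* at −4.90 and *ADRA2A* at −3.69 lie below the bulk of genes, *LINGO1* at 2.76 above it, and *LINGO2* and *ADRA2C* within it.

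Levels were compared between genes per kilobase of exon, the mean CPM divided by the exon length in GENCODE 44. With Ad CMV GFP the order was *LINGO2* at 2.76 ± 0.177, *ADRA2A* at 2.08 ± 0.299, *LINGO4* at 1.36 ± 0.225, *ADRA2C* at 0.493 ± 0.0561 and *LINGO1* at 0.129 ± 0.0287 CPM per kilobase (SD, n = 3), with *ADRA2B* at 0. No neighbours in this order overlapped between their libraries. With Ad CMV 3xFlag-*Esrrg* the order was *LINGO2* at 2.20 ± 0.150, *LINGO1* at 0.874 ± 0.128, *ADRA2C* at 0.622 ± 0.278, *ADRA2A* at 0.158 ± 0.0667 and *LINGO4* at 0.0429 ± 0.0207 CPM per kilobase (SD, n = 3). There *LINGO1* and *ADRA2C* overlapped and the other neighbours did not. *LINGO1* and *LINGO4* had exchanged places within their family, as had *ADRA2C* and *ADRA2A*. Both exchanges are a description, since they involve *LINGO4* and *ADRA2A*, which were chosen for their decrease. The orders of all 30 pairs of genes within a group were the same with library size as the scaling and with the length of the longest transcript.

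**Figure D3:**
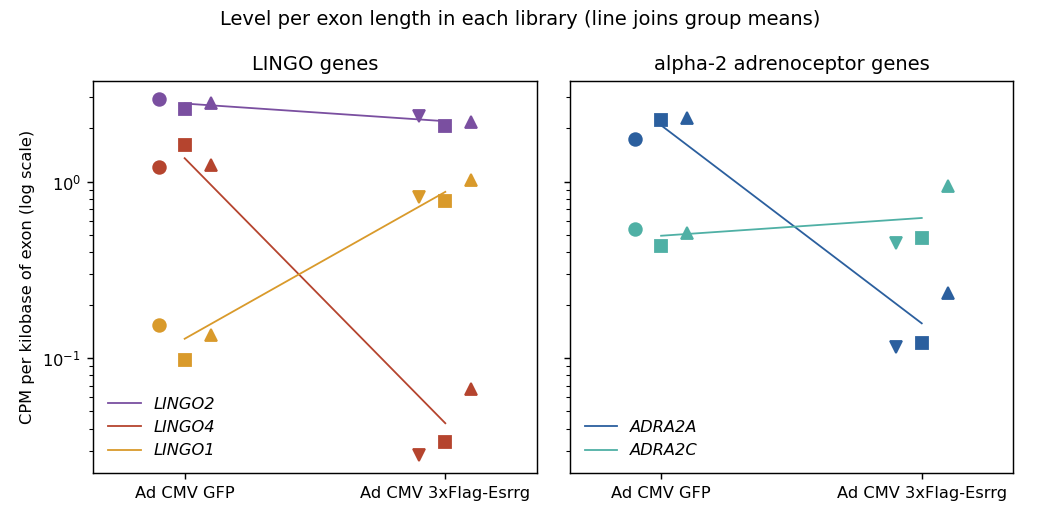
CPM per kilobase of exon (log scale) of the LINGO genes (left) and alpha-2 adrenoceptor genes (right) in each library; points are libraries and lines join group means, with *ADRA2B* left out for its counts of 0. The lines of *LINGO4* (1.36 to 0.0429) and *LINGO1* (0.129 to 0.874) cross, and those of *ADRA2A* and *ADRA2C* cross as well. *LINGO4* and *ADRA2A* were chosen for their decrease.

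The share of each gene in the summed level of its family, and that sum, are given as a description. *LINGO4* and *ADRA2A* were chosen for their decrease, so their shares had to be lower, and the sums include that decrease. The LINGO shares depend on the exon model of *LINGO2*, which may not be the one used for counting and which shares 44.4% of its exon bases with ENSG00000260412. *LINGO4* made up 28.1%, 37.6% and 30.0% of the summed level of *LINGO1*, *LINGO2* and *LINGO4* with Ad CMV GFP and 0.883%, 1.17% and 2.04% with Ad CMV 3xFlag-*Esrrg*. *LINGO1* made up 3.56%, 2.26% and 3.28% and then 25.6%, 27.2% and 31.3%. The summed level of these genes was 4.15 to 4.30 CPM per kilobase in the control libraries and 2.87 to 3.26 in the others. *ADRA2A* made up 76.4%, 83.8% and 81.6% of the summed alpha-2 adrenoceptor level with Ad CMV GFP and 20.6%, 20.4% and 19.8% with Ad CMV 3xFlag-*Esrrg*. That sum was 2.27 to 2.79 CPM per kilobase in control libraries and 0.562 to 1.19 in the others. The lack of overlap is no separate result, since *ADRA2A*, chosen for its decrease, made up most of the control sum.

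The genes whose pattern lay nearest to each of the decreased genes were found by Euclidean distance of log2 CPM, centred on each gene's mean, over the 6 libraries and 12057 protein-coding genes. For *LINGO4* they were *NEUROG2* at a distance of 0.927, *ADRA2A* at 0.976 and *CHRNA3*, a nicotinic acetylcholine receptor subunit gene, at 1.41. For *ADRA2A* they were *NEUROG2* at 0.234, *CHRNA3* at 0.800 and *NGFR* at 0.812. *NEUROG2* counts were 189, 226 and 235 with Ad CMV GFP and 10, 14 and 26 with Ad CMV 3xFlag-*Esrrg*. *CHRNA3* had 2507, 2650 and 2813 against 222, 271 and 307 counts, a log2 fold change of −3.35. In both genes, as in *LINGO4* and *ADRA2A*, replicate 4 was the highest library of the Ad CMV 3xFlag-*Esrrg* group. The distance uses the libraries of the contrast that chose *LINGO4* and *ADRA2A*, so genes with a similarly large decrease had to lie near. Shared regulation was not tested.

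Among 12 genes that encode *LINGO3* or the partners of LINGO1 in Nogo receptor signalling, 8 were tested, 2 fell and 2 rose, where 34.1% of all tested genes were called. Their median log2 fold change was −0.12 against −0.10 over all tested genes. *NGFR*, the p75 neurotrophin receptor, was a co-receptor gene that fell. Its counts were 127, 158 and 167 with Ad CMV GFP and 10, 18 and 25 with Ad CMV 3xFlag-*Esrrg*, a log2 fold change of −3.12, and it lay in all 3 libraries below the controls. *TNFRSF19*, the alternative co-receptor, rose by 0.92 on the log2 scale, with 292, 329 and 372 counts against 583, 663 and 665. Downstream, the GTPase gene *RHOA* rose (0.83) while the kinase gene *ROCK2* fell by 0.59 on the log2 scale, a call that was lost in 9 of 16 alternatives, among them the fits without Ad CMV GFP replicate 1 or 3 and without Ad CMV 3xFlag-*Esrrg* replicate 3 or 4 (−0.67 to −0.52 over all single omissions). The call of *RHOA* was lost with scaling by library size alone (0.49) and with the share of no-feature reads as a covariate (0.23). The receptor gene *RTN4R* had 11, 18 and 26 against 20, 22 and 26 counts and overlapped. The ligand genes differed in level, from 16432 to 24965 counts for *RTN4* and 445 to 784 for *OMG* to 1 count in all for *MAG*. Neither *RTN4* nor *OMG* passed the test. *LINGO3*, which was not tested, had 2, 4 and 9 counts against 3, 1 and 3.

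Genes of other adrenoceptor classes had few counts. *ADRA1A*, of the alpha-1 class that raises calcium in the cell, had 4 to 13 counts in any library, *ADRA1B* and *ADRA1D* had at most 4, *ADRB1* had 1 in all and *ADRB3* had 0. None of these genes was tested. *ADRA2A* had more counts than any of them in every control library, with at least 190.

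The genes through which alpha-2 adrenoceptors act numbered 22, of which 19 were tested, 3 fell and 2 rose, with a median log2 fold change of 0.04. Over all tested genes 34.1% were called, so 5 of 19 was no higher a share than the background. *GNAO1*, the gene of an inhibitory G protein subunit of neurons, fell by 0.65 on the log2 scale and *GNAI2*, of a related subunit, rose by 0.79. *GRK3*, a kinase that desensitises the receptors, fell by 1.11 on the log2 scale with 942, 1020 and 1085 counts against 455, 480 and 501. *ARRB2*, an arrestin gene, rose by 0.78, and the potassium channel gene *KCNJ9* fell by 1.05 on the log2 scale from low counts of 29, 33 and 31 to 13, 11 and 22. None of the adenylyl cyclase genes was called, and *ADCY4* was at 0. Without Ad CMV 3xFlag-*Esrrg* replicate 3 the list had 3 calls in place of 5, since *GNAO1* (−0.58) and *KCNJ9* (−0.81) were no longer called. *GNAO1* (−0.46) was also not called without Ad CMV 3xFlag-*Esrrg* replicate 2, nor *KCNJ9* without Ad CMV GFP replicate 1 or 3 (−1.32 to −0.81 over all single omissions). Neither gene was called with DESeq2 (−0.56 for *GNAO1* and −0.96 for *KCNJ9*). The call was also lost for *GNAO1* when scaled by RLE size factors (−0.57). For *KCNJ9* it was lost with the share of no-feature reads as a covariate (−1.16). The increases of *GNAI2* and *ARRB2* were each not called in 4 of 16 alternatives. For *GNAI2* the value was 0.45 with library size alone, 0.47 after the GC and length correction, 0.51 with the block added and 0.22 with the covariate. For *ARRB2* it was 0.44, 0.40, 0.45 and 0.22 in the same order.

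The neuronal surface proteins with leucine-rich repeats are the wider structural group of the LINGO family. Of 31 of their genes 24 were tested, 9 fell and 3 rose, with a median log2 fold change of −0.14, and 5 had 0 counts throughout. Over all tested genes 34.1% were called, 16.8% as lower. The largest decrease was of *LRRTM4*, a synaptic organiser, with 1017, 1064 and 1079 counts against 328, 389 and 373 and a log2 fold change of −1.57. It was followed by *LRRTM1* (−1.49), *LRRN3* (−1.25), *LRFN2* (−1.19) and *LRRN1* (−1.12), and by *FLRT1*, *LRRTM2*, *ISLR2* and *SLITRK6* between −0.80 and −0.65. *LRRN2* (1.41), *LRFN4* (1.20) and *LRFN1* (0.68) rose. *LRFN2* had at most 36 counts in any library, and its call was lost without Ad CMV GFP replicate 3 (−1.01) or 4 (−1.09) or Ad CMV 3xFlag-*Esrrg* replicate 3 (−0.93). That of *LRFN1* was lost without Ad CMV GFP replicate 1 (0.60) or 3 (0.68) or Ad CMV 3xFlag-*Esrrg* replicate 3 (0.65) or 4 (0.51), and that of *ISLR2* without Ad CMV GFP replicate 3 (−0.56) or Ad CMV 3xFlag-*Esrrg* replicate 2 (−0.51). With the share of no-feature reads as a covariate, *LRRTM2* was −0.079, *LRRTM1* −0.84 and *LRRN1* −0.75, and these were not called, nor was *LRRN2* (adjusted p 0.079 by edgeR). *LRRTM2* (−0.52) was also not called after the GC and length correction, and *SLITRK6* lost its call in 5 of 16 alternatives (−0.58 to −0.36). The differences of these called genes were smaller than that of *LINGO4*, a comparison of values only. *LINGO4* was chosen for its large decrease in these libraries, so this order was to be foreseen.

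Noradrenaline, the ligand of the alpha-2 adrenoceptors, is made, stored and taken up by the products of 9 listed genes. Of these 7 were tested, 4 fell and 1 rose, against 34.1% of all tested genes called, with a median log2 fold change of −1.95. *SLC6A2*, the noradrenaline transporter gene, had 1103, 1344 and 1463 counts with Ad CMV GFP and 175, 210 and 208 with Ad CMV 3xFlag-*Esrrg*, and fell by 2.75 on the log2 scale. *DBH*, which makes noradrenaline from dopamine, fell by 2.64 on the log2 scale with 311, 361 and 390 counts against 52, 58 and 63. *SLC18A1*, a vesicular transporter, and *DDC*, the decarboxylase that makes dopamine, fell as well, with log2 fold changes of −2.19 and −1.95. *TH*, the first enzyme of the route, was listed at 0 in all libraries, and the cause of that was not tested. This list was chosen with earlier results of these libraries known, so its direction is not independent evidence.

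**Figure D4:**
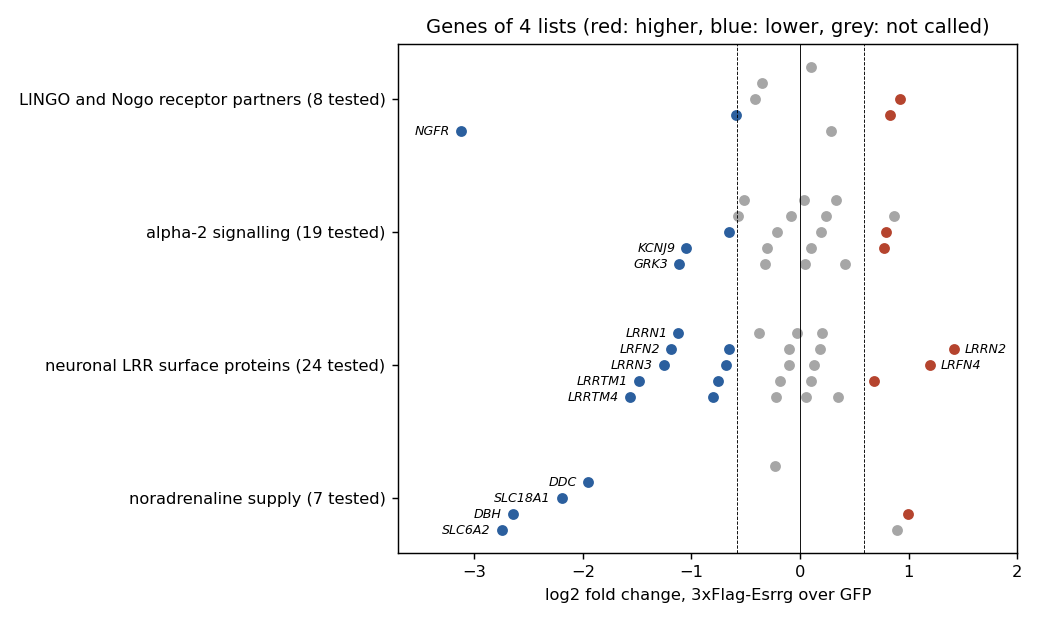
Log2 fold change (horizontal axis) of each tested gene in 4 lists; red points were called higher, blue points lower and grey points not called, dashed lines mark a 1.5-fold change, and the vertical spread within a list only separates points. *NGFR* at −3.12 and 4 genes of noradrenaline supply between −2.75 and −1.95 lie farthest to the left.

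The genes around *LINGO4* did not move as one. Of 15 annotated genes within 50 kilobases, 5 were tested, 2 fell and 1 rose, where 34.1% of all tested genes were called. *MRPL9*, a mitochondrial ribosomal protein gene, rose by 0.67 and *TDRKH*, a Tudor domain gene, fell by 0.64 on the log2 scale. These calls were lost without single libraries, for *MRPL9* Ad CMV 3xFlag-*Esrrg* replicate 4 (0.56) and for *TDRKH* Ad CMV GFP replicate 3 (−0.54) or Ad CMV 3xFlag-*Esrrg* replicate 2 (−0.41). The non-coding gene ENSG00000269489, 1662 bases away on the opposite strand, had 9, 19 and 24 counts against 4, 2 and 4, a log2 fold change of −2.35. The only annotated gene within 50 kilobases of *ADRA2A* was a pseudogene with 0 counts. Around *LINGO1* 5 genes were annotated and none was tested, among them *LINGO1-AS1* with 1, 2 and 4 against 3, 2 and 6 counts and *LINGO1-AS2* with 0 against 2, 3 and 1. Of 7 tested genes within or near *LINGO2*, ENSG00000260412 was the 1 called, where 34.1% of all tested genes were called.

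**Figure D5:**
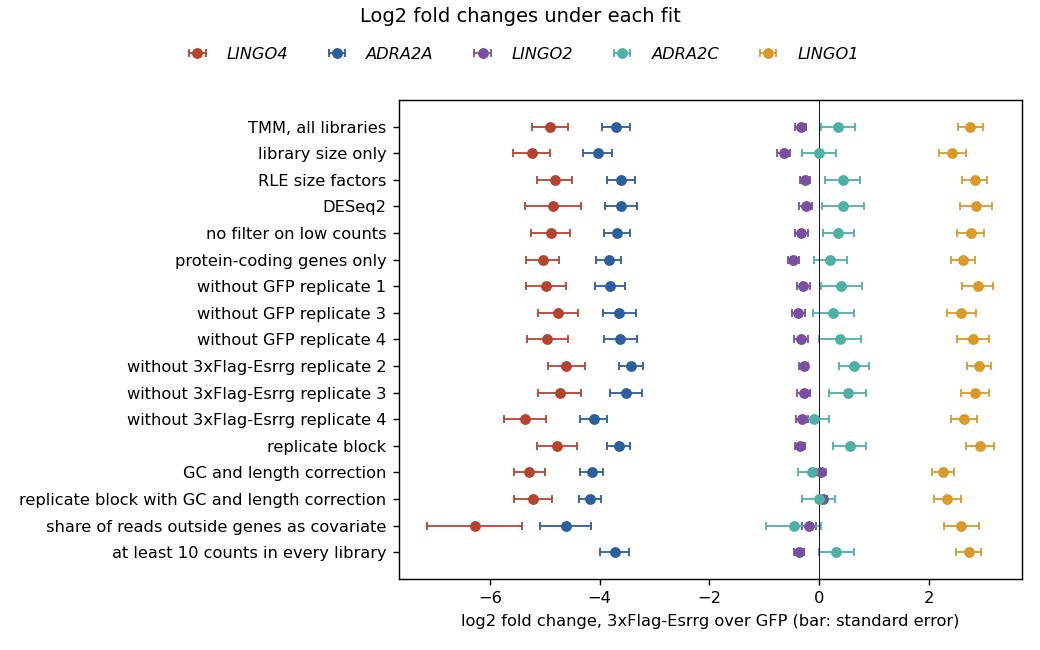
Log2 fold change (horizontal axis) of the 5 fitted genes under each fit (vertical axis); points are estimates and bars standard errors, and *LINGO4* has no value where at least 10 counts in every library were required. *LINGO4* and *ADRA2A* stay between −6.28 and −3.43 and *LINGO1* between 2.26 and 2.94, while *LINGO2* and *ADRA2C* lie on both sides of 0.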

How the data were processed

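RNA of SH-SY5Y cells was measured by sequencing in 6 libraries, 3 per group, taken as replicates from the labels. Per the labels, libraries were directional and depleted of ribosomal RNA, and the submitters' processing notes name CASAVA, Trim Galore 0.6.7, STAR 2.7.9a, HTSeq 0.11.3, DESeq2 and GRCh38. The annotation release and strand setting are not given in the sources used here. The authors deposited raw counts of reads per gene, and 5 summary entries were left out of library sizes. Of 67060 identifiers, 60419 (90.1%) matched GENCODE 44, which gave symbols, positions and lengths.

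Counts were filtered with filterByExpr (24500 genes), scaled by TMM and compared with edgeR 4.0.16 (R 4.3.3) by its quasi-likelihood test. A gene was called at an adjusted p (Benjamini-Hochberg, over all tested genes) below 0.05 with a change of at least 1.5-fold. With 3 libraries against 3, an exact permutation test cannot go below 0.1 and was not used. CPM used TMM sizes, and log values a prior count of 2. Intervals were exact (95%) and, like the floor of 3 counts, cover counting error only. Promoters came from RefSeq. Alternatives used DESeq2 1.42.0, other scalings and filters, omission of each library, a replicate block, a GC and length correction (mgcv 1.9.3) and the share of reads assigned to no feature. In simulated counts for this comparison (24500 genes, 200 changed), edgeR recovered 200 with 6 false calls and DESeq2 200 with 5. The changed genes had a mean of at least 50 counts and changes far above 1.5-fold. All genes had the same dispersion, and libraries differed otherwise only in depth. The simulation therefore does not cover genes with few counts, changes near 1.5-fold or other differences between libraries.

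The genes, lists and tests were chosen with earlier results of these data known. Genes named are the 6 examined, *ESRRG*, genes of the lists, tested genes within 50 kilobases, the 3 protein-coding genes nearest in pattern to *LINGO4* and to *ADRA2A*, and those next to them in the order of decreases. *LINGO1-AS1*, *LINGO1-AS2* and markers at 0 were named after their values were seen. A few genes that meet these criteria are left out here by name.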

Additional observations from a re-analysis of the deposited data

How the results depend on the processing

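The call of *LINGO1* was kept under all 16 alternatives. *LINGO4* ranged from −6.28 to −4.61 and *ADRA2A* from −4.62 to −3.43 on the log2 scale. *LINGO4* was −5.29 when corrected for GC and length, −6.28 with the share of reads assigned to no feature as a covariate, −5.36 to −4.61 with single libraries left out, and could not be fitted with at least 10 counts in every library. *ADRA2A* was −4.14 when corrected for GC and length, −4.17 when the replicate block was added, −4.62 with the covariate and −4.10 to −3.43 with single libraries left out. *LINGO2* was −0.65 with library size only and turned to 0.029 when corrected for GC and length and to 0.075 when the block was added. *ADRA2C* turned to −0.13 when corrected for GC and length, −0.0046 with the block added and −0.46 with the covariate, and was −0.082 to 0.64 with single libraries left out. *LRFN1* turned to −0.056 with the covariate.

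Genes called higher and lower numbered 4234 and 4117, and 2200 and 7566 with library size only, where the median of all genes was −0.42. They numbered 2814 and 2468 among protein-coding genes, 1773 and 1323 with the covariate and 1952 and 1982 at 2-fold. The higher share was 50.7%, 22.5% with library size only and 62.7% with DESeq2. Calls in the Nogo receptor list (4) became 2 with the covariate and 1 at 2-fold. Those in alpha-2 signalling (5) became 3 with DESeq2, 3 with the covariate, 9 without a fold limit, 2 at 2-fold and 3 to 6 with single libraries left out. Those in the leucine-rich repeat list (12) became 5 with the covariate and 7 at 2-fold. Of 35 other genes examined, 17 kept their call throughout, and of 552 values 65 lost the call in the same direction and 1 reversed. The causes were not tested.

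The replicate numbers 3 and 4 are shared by both groups, and deviations of same-numbered libraries correlated at 0.075 and −0.0001 over genes. Pairs with different numbers ranged from −0.13 to 0.14. With 3 libraries per group, these values cannot tell whether same-numbered libraries were handled together. With the replicate block, *LINGO4* was −4.78, *ADRA2A* −3.65, *LINGO1* 2.94, *LINGO2* −0.34 and *ADRA2C* 0.56, and 4742 genes were higher and 5693 lower. Depth limits *LINGO4* in the treated libraries and *ADRA2B* in all.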
